A study of Mus musculus with 12 samples.

Results

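The tricarboxylic acid (TCA) cycle and mitochondrial fatty acid oxidation were followed through 39 genes, chosen by symbol as enzymes, subunits and carriers of the 2 pathways. All 39 had a row among the 23621 gene symbols of the count table, and 22 belong to the pyruvate dehydrogenase complex and the TCA cycle and 17 to fatty acid oxidation. All 39 passed the filter on low counts that left 10604 genes for testing, although Decr1 passed through the Naive libraries, with 17 to 28 reads there and 0 to 10 in HDN.

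RNA had been sequenced from neutrophils in 3 groups of 4 libraries, and all mice were female Balb/c, 8 weeks old. Naive libraries came from bone marrow. HDN (high-density neutrophils) and LDN (low-density neutrophils) came from the peripheral blood of mice bearing liver metastases of breast cancer, and they take their names from the layer in which the cells settle on a density gradient. No genotype, agent or tumour line is named in the labels. Every comparison with Naive sets blood of tumour-bearing mice against marrow of naive mice, so tissue and disease cannot be told apart there. The HDN and LDN column names carry a date-like tag that the Naive names lack. What the tag marks is not given, and a batch that went with it could not be told apart either. The labels do not tie libraries to separate animals, and the p-values therefore reflect the spread between libraries, which may be technical.

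The pyruvate dehydrogenase complex turns pyruvate, the end product of glycolysis, into acetyl-CoA. The TCA cycle oxidises acetyl-CoA in mitochondria and passes electrons to the respiratory chain, and fatty acid oxidation supplies further acetyl-CoA by shortening acyl chains in a repeated spiral of dehydrogenation, hydration, dehydrogenation and thiolysis. Circulating neutrophils are known for few mitochondria and for reliance on glycolysis, whereas their precursors in the marrow hold more mitochondria. The study, by its title, concerned immature LDN and their flexible metabolism.

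Promoter sequence from RefSeq (build GRCm38.p6, the C57BL/6J reference and not the strain of these mice) was found for 35 of the 39 genes. Acadl had the largest rise in blood of the 39, and Sdha and Sdhb, subunits of 1 enzyme, differed in opposite directions between LDN and HDN. The ratio of Hadha to its partner Hadhb was lower in all HDN libraries than in all others, although no such ratio passed its test (below). The 4 windows below are the 250 bases before the start of transcription of Acadl, Sdha, Sdhb and Hadhb. They lie at chr1:66863310-66863559 on the minus strand for Acadl, chr13:74350241-74350490 on the minus strand for Sdha, chr4:140961021-140961270 on the plus strand for Sdhb and chr5:30155003-30155252 on the plus strand for Hadhb. Capitals mark AGGTCA, the half-site of nuclear receptors, and GCATGCGC, the reverse complement of the NRF1 core GCGCATGC, and both stand in Sdhb alone among the 4.
Acadl: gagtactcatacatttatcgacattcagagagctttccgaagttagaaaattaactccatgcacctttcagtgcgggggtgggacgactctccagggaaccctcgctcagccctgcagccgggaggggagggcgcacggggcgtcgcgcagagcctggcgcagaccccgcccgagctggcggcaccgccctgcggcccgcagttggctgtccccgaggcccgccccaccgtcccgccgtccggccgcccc
Sdha: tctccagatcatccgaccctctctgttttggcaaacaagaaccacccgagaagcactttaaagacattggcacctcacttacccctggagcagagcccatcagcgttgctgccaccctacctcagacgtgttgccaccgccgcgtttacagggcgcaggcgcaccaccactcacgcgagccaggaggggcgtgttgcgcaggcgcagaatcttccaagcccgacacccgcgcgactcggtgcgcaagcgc
Sdhb: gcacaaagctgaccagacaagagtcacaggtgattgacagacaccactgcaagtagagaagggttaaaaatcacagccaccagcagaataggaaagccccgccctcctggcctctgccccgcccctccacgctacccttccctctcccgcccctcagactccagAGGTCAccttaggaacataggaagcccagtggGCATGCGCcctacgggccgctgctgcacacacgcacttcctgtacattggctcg
Hadhb: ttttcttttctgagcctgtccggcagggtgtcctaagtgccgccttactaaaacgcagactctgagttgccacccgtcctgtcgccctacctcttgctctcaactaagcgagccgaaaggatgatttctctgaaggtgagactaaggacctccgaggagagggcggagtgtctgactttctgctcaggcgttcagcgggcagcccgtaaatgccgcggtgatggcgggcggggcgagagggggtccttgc
Hadha and Hadhb are transcribed away from each other from starts 273 bases apart, and the 250 bases printed for Hadhb lie between those starts. In the 250-base windows, searched on both strands, the half-site AGGTCA occurred in 6 of 35 members (17.1%, against 14.0% of 32851 RefSeq windows), the NRF1 core in 4 (11.4%, against 2.26%), the ETS core CCGGAAG in 4 (11.4%, against 6.91%) and the E-box CACGTG in 0 (against 6.02%). NRF1, ETS factors such as GABP, and nuclear receptors such as the PPARs are known regulators of mitochondrial genes. The NRF1 core stood in Etfdh, Acadm, Sdhb and Etfa, and the ETS core in Cpt2, Sdhd, Slc25a20 and Idh3g. Each member was counted by 1 window, whereas the RefSeq windows held every distinct start, which can be several per gene. The 2 shares are thus in unlike units, and a match describes letters only.

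Library totals ranged from 18113922 to 30044508 counts, and 3 reads, the floor used for detection, were worth 0.0954 to 0.153 CPM (CPM are counts scaled to a common library size with TMM factors, and the floor covers counting error only). The TMM factor was 1.28 in HDN 7 and 1.01 to 1.05 in the other HDN libraries, 0.943 to 1.09 in Naive and 0.825 to 0.927 in LDN. The abundant transcripts S100a8 and S100a9, from the list of neutrophil markers read below, had group means of 53258 and 69779 CPM in Naive libraries. Their means were 35725 and 44708 CPM in HDN libraries and 74348 and 80293 CPM in LDN libraries. Not all markers of that list shared this order, and Csf3r was highest in HDN, at 8660 CPM against 3632 CPM in Naive and 3962 CPM in LDN. Ly6g was not analysed here. Reads of the 39 genes made up 0.175% ± 0.0115 of a Naive library, 0.241% ± 0.0206 of an HDN library and 0.241% ± 0.0180 of an LDN library (SD, n = 4 per group). Each difference is given on the log2 scale with its SE, from 1 quasi-likelihood fit in edgeR to the 12 libraries, and adjusted p is the Benjamini-Hochberg value over the 10604 genes, with a threshold of 0.05. Lower RNA per cell and fewer cells of a kind cannot be told apart in these bulk samples.

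The 39 genes took the same share of reads in LDN and HDN, as given above, and the differences between these groups are those after scaling with the unequal TMM factors. After scaling, 18 of the 39 genes were higher in LDN, 1 was lower (Sdha) and 20 did not pass the test, which is 46.2% higher and 2.56% lower where 26.0% and 20.3% of all tested genes were called. The median log2 difference over the 39 genes was 0.35, against 0.02 over all genes. The counts were 11 higher and 1 lower of 22 in the TCA cycle group and 7 higher of 17 in fatty acid oxidation, with medians of 0.35 and 0.34. The number higher fell to 11 without LDN 4 or in a fit of these groups alone, and was 22 without HDN 4. When the 20 most abundant genes were left out of the library sizes, 14 members were higher and 2 lower, and the split over all genes turned from 2761 higher and 2153 lower to 2416 and 2690.

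In HDN against Naive, calls went in both directions, at shares near those of all tested genes. In HDN 14 of the 39 genes were higher (35.9%, where 30.0% of all tested genes were) and 11 were lower (28.2%, where 29.9% were). The median difference was 0.07, against 0.04 over all genes. Without Naive 2 the number higher fell to 8, and without HDN 4 to 9. In LDN against Naive 21 genes were higher (53.8%, where 27.4% of all genes were) and 5 lower (12.8%, where 26.8% were), with a median of 0.53. The 3 comparisons share libraries in pairs and are set side by side for that reason. Summed over the 17 fatty acid oxidation genes, levels were 381 to 427 CPM in Naive, 701 to 909 CPM in HDN and 965 to 1082 CPM in LDN, without overlap. Without Acadl, the most abundant of them in blood, the sums were 338 to 377, 345 to 586 and 508 to 671 CPM, and HDN then overlapped both other groups. The 22 TCA genes summed to 1255 to 1316 CPM in Naive, 1194 to 1661 CPM in HDN and 1617 to 1872 CPM in LDN, so that HDN overlapped both other groups.

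**Figure D1:**
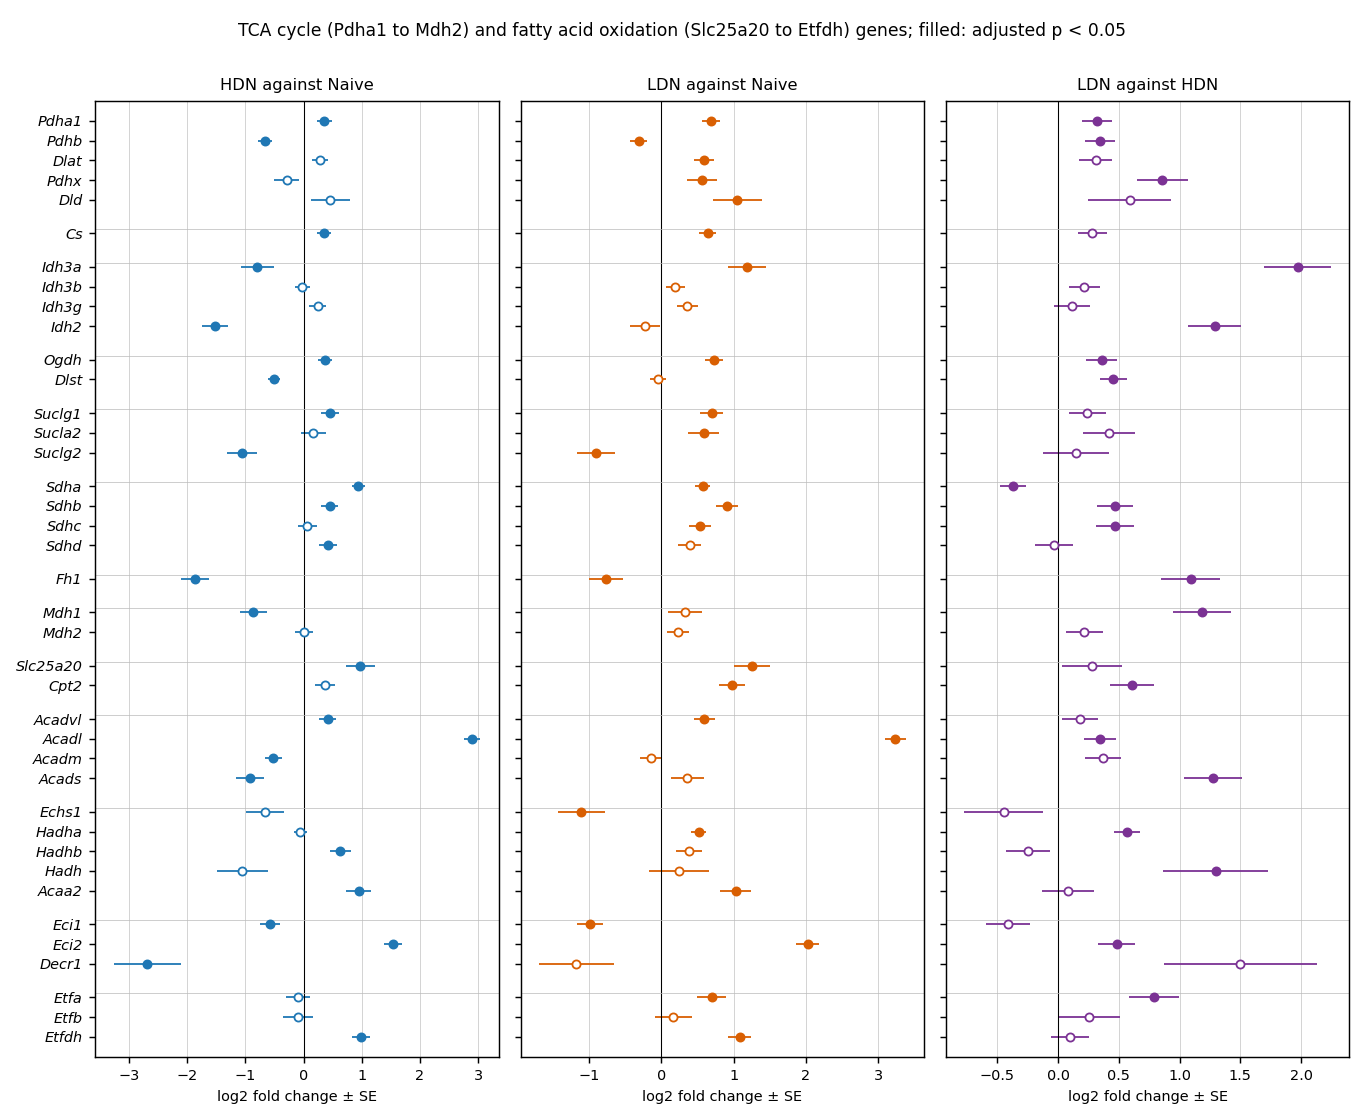
Log2 fold change ± SE of each of the 39 genes (rows, in order of enzyme step) in HDN against Naive, LDN against Naive and LDN against HDN. Filled points passed an adjusted p of 0.05, and the horizontal scales differ between panels. Acadl stands farthest right in both comparisons with Naive, and Sdha is the only filled point left of 0 in LDN against HDN.

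Genes fell into 14 patterns of calls over the 3 comparisons. Pdha1, Ogdh, Sdhb, Acadl and Eci2 were higher in HDN than in Naive and higher again in LDN. Cs, Suclg1, Slc25a20, Acadvl, Acaa2 and Etfdh were higher in both blood groups, with no call between them. Idh2, Dlst, Mdh1 and Acads were lower in HDN than in both Naive and LDN, with no call between LDN and Naive. Pdhx, Sdhc, Cpt2, Hadha and Etfa were higher in LDN than in both other groups, with no call between HDN and Naive. Idh3b, Idh3g, Mdh2 and Etfb passed the test in none of the 3 comparisons, where their log2 differences lay between -0.09 and 0.36.

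**Figure D2:**
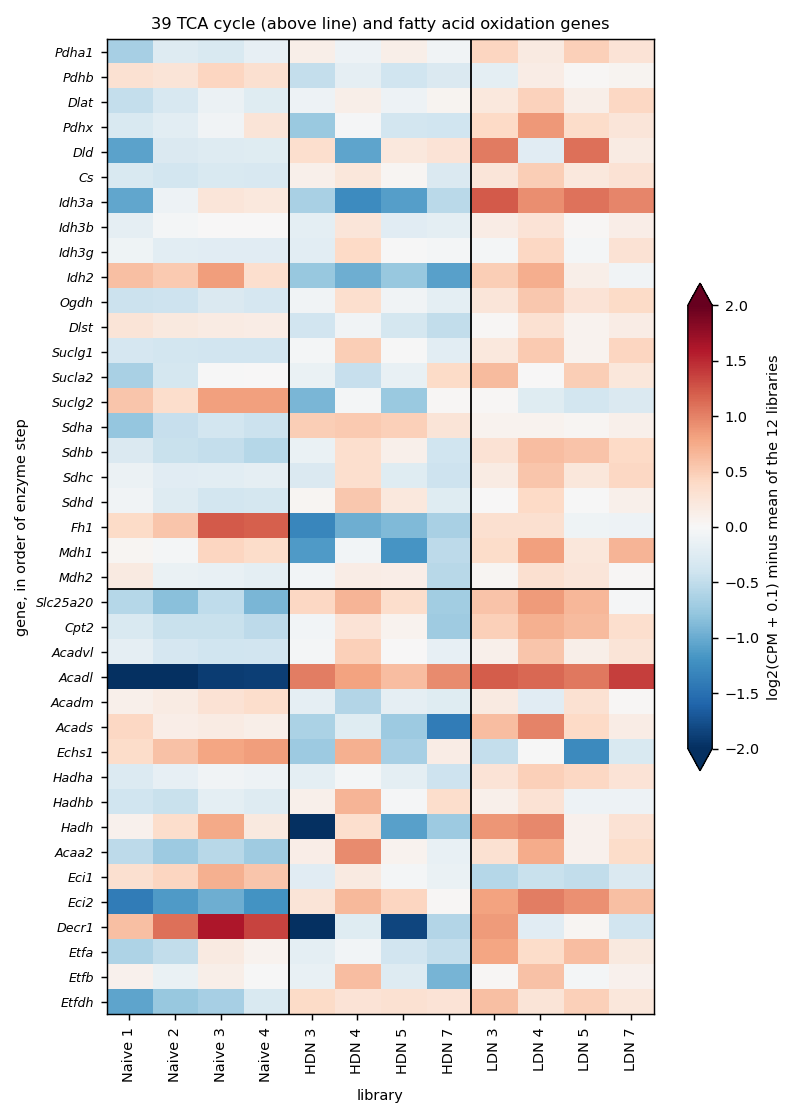
Level of each of the 39 genes in each library as log2(CPM + 0.1) minus its mean over the 12 libraries, with colours limited at 2 either way. Acadl is low in every Naive library, Fh1 and Idh2 are low in every HDN library, and Idh3a is high in every LDN library.

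Pyruvate dehydrogenase subunits did not move together. Pdha1, the alpha subunit of the E1 decarboxylase, stood at 72.2 ± 10.4 CPM in Naive, 92.5 ± 7.49 CPM in HDN and 116 ± 10.97 CPM in LDN. Its partner Pdhb, the E1 beta subunit, stood at 29.9, 28.7, 32.7 and 30.0 CPM in Naive 1 to 4, at 17.3, 21.3, 18.3 and 19.7 CPM in HDN 3, 4, 5 and 7, and at 21.1, 26.8, 24.5 and 25.1 CPM in LDN 3, 4, 5 and 7. All Naive libraries lay above all blood libraries for Pdhb, and below them for Pdha1. Against Naive, Pdhb was lower in HDN (log2 -0.66 ± 0.12, adjusted p = 0.000319) and in LDN (-0.32 ± 0.12, adjusted p = 0.0395), and Pdha1 was higher in HDN (0.36 ± 0.12, adjusted p = 0.0239) and in LDN (0.68 ± 0.12, adjusted p = 0.000434). Between LDN and HDN both were higher in LDN, by 0.32 ± 0.12 for Pdha1 (adjusted p = 0.0472) and 0.35 ± 0.12 for Pdhb (adjusted p = 0.0306). These last calls were marginal: Pdha1 missed the threshold without any 1 library other than Naive 4 (adjusted p = 0.0503 to 0.210) and Pdhb without Naive 1, HDN 3, HDN 5, LDN 4, LDN 5 or LDN 7 (0.0601 to 0.138). The same held for Pdhb in LDN against Naive without Naive 2, 3 or 4, HDN 3, HDN 5 or LDN 3 (0.0513 to 0.110), and for Pdha1 in HDN against Naive without Naive 1, HDN 3 or HDN 5 (0.0540 to 0.0611). Between LDN and HDN both calls were also lost under RLE scaling, library sizes without the 20 most abundant genes, no filter or a fit of these groups alone. Pdha1 was lost with DESeq2 as well (0.0776 to 0.150 for Pdha1 and 0.0557 to 0.119 for Pdhb over these settings).

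The E2 and E3 components of the complex had their highest means in LDN, but of the 3 only Pdhx passed against HDN. Dlat, the E2 acetyltransferase, stood at 12.7 ± 1.36, 15.4 ± 1.20 and 19.1 ± 2.11 CPM in Naive, HDN and LDN and was higher in LDN than in Naive (0.59 ± 0.14, adjusted p = 0.00228), while LDN against HDN gave 0.31 ± 0.14 (adjusted p = 0.0760). Pdhx, which anchors E3 to the E2 core, stood at 4.71 ± 0.854, 3.83 ± 0.801 and 6.96 ± 1.44 CPM and was higher in LDN than in HDN (0.86 ± 0.21, adjusted p = 0.0047) and than in Naive (0.57 ± 0.21, adjusted p = 0.0346). The second of these calls was lost without Naive 1, 2 or 3 or LDN 3, 4 or 5 (adjusted p = 0.0558 to 0.157) and with no filter (0.0651). Dld, the E3 dehydrogenase that also serves the 2-oxoglutarate complex, showed 9.25, 16.0, 16.3 and 16.5 CPM in Naive 1 to 4, then 24.6, 9.35, 22.4 and 23.6 CPM in HDN and 39.9, 16.7, 41.9 and 21.7 CPM in LDN 3, 4, 5 and 7. HDN 4 and LDN 4 were each the lowest of their group for Dld, and Naive 1 lay far below the other Naive libraries. Dld was higher in LDN than in Naive (1.05 ± 0.34, adjusted p = 0.0189), a call lost without Naive 1, LDN 3 or LDN 5 (0.0812 to 0.0851). Between LDN and HDN its difference was 0.59 ± 0.34 (adjusted p = 0.171). In a fit of these groups alone the adjusted p was 0.287 without and 0.0481 with the replicate number as a block, and LDN was higher in 3 of 4 same-numbered pairs.

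Cs encodes citrate synthase, which joins acetyl-CoA to oxaloacetate and opens the cycle. It stood at 138 ± 3.05 CPM in Naive, 177 ± 26.0 CPM in HDN and 215 ± 19.6 CPM in LDN. It was higher than in Naive in HDN (0.36 ± 0.12, adjusted p = 0.0184, and 0.0666 without Naive 2) and in LDN (0.64 ± 0.12, adjusted p = 0.000461). The difference between LDN and HDN, 0.28 ± 0.12, passed only without HDN 4 (adjusted p = 0.0641 in all libraries and 0.0256 without it).

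Among the isocitrate dehydrogenases, Idh3a separated LDN from HDN most. Idh3a, the catalytic alpha subunit of the NAD-dependent enzyme of the cycle, stood at 1.64, 3.21, 4.12 and 4.04 CPM in Naive 1 to 4, at 2.18, 1.40, 1.56 and 2.37 CPM in HDN 3, 4, 5 and 7, and at 8.22, 6.74, 7.51 and 6.89 CPM in the LDN libraries of the same numbers. Every LDN library lay above every other library. The gene was 3.92-fold higher in LDN than in HDN (1.97 ± 0.28, adjusted p = 8.27e-05) and 2.27-fold higher than in Naive (1.18 ± 0.27, adjusted p = 0.00201). HDN was below Naive (log2 -0.79 ± 0.28, adjusted p = 0.024), with overlapping libraries. That call was lost without Naive 3, Naive 4, HDN 4 or HDN 5 (0.0624 to 0.0745), with limma-voom (0.0503) and in a fit of these groups alone (0.0571). The other subunits of the same enzyme showed no such difference. Idh3b stood at 28.2 ± 1.75, 27.7 ± 4.65 and 32.2 ± 2.27 CPM and Idh3g at 40.8 ± 2.00, 48.3 ± 9.21 and 52.4 ± 8.48 CPM in Naive, HDN and LDN, with LDN above HDN by 0.22 ± 0.13 for Idh3b (adjusted p = 0.186, and 0.0190 without HDN 4) and 0.12 ± 0.15 for Idh3g (adjusted p = 0.544). Idh3g in LDN exceeded Naive by 0.36 ± 0.15 (adjusted p = 0.0536), which passed without HDN 3, 4 or 7 (0.0191 to 0.0482).

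Idh2, the NADP-dependent mitochondrial enzyme, was low in HDN. It stood at 4.63, 4.39, 5.44 and 3.84 CPM in Naive 1 to 4, at 1.74, 1.49, 1.75 and 1.37 CPM in HDN 3, 4, 5 and 7, and at 4.30, 5.07, 3.27 and 2.89 CPM in LDN 3, 4, 5 and 7. HDN lay below both other groups without overlap, whereas LDN and Naive overlapped. Idh2 was 2.87-fold lower in HDN than in Naive (-1.52 ± 0.22, adjusted p = 3.86e-05) and 2.44-fold higher in LDN than in HDN (1.29 ± 0.22, adjusted p = 0.000368), and LDN against Naive gave -0.23 ± 0.21 (adjusted p = 0.363).

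Ogdh and Dlst, the E1 and E2 components of the 2-oxoglutarate dehydrogenase complex, took opposite directions between HDN and Naive. Ogdh stood at 105 ± 4.89, 136 ± 23.6 and 175 ± 16.7 CPM in Naive, HDN and LDN and Dlst at 171 ± 5.42, 120.1 ± 15.4 and 165 ± 14.0 CPM. In HDN, Ogdh was higher (0.37 ± 0.12, adjusted p = 0.0197) and Dlst lower (-0.51 ± 0.11, adjusted p = 0.00128). The call for Ogdh was lost without Naive 2 or HDN 4 (0.0535 to 0.0666). In LDN, Ogdh was higher than in Naive (0.73 ± 0.13, adjusted p = 0.000248) and Dlst gave -0.05 ± 0.11 (adjusted p = 0.714). Both were higher in LDN than in HDN, Ogdh by 0.36 ± 0.12 (adjusted p = 0.0305, lost without HDN 3, 5 or 7 or LDN 4, 5 or 7, at 0.0522 to 0.128) and Dlst by 0.45 ± 0.11 (adjusted p = 0.00433). This call for Ogdh was also lost with library sizes without the 20 most abundant genes, no filter or a fit of these groups alone (0.0590 to 0.08255).

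Succinate-CoA ligase joins the alpha subunit Suclg1 to 1 of 2 beta subunits, Sucla2 for ADP or Suclg2 for GDP. Suclg1 stood at 27.4, 27.0, 26.6 and 26.6 CPM in Naive 1 to 4, at 33.7, 48.8, 34.6 and 30.1 CPM in HDN 3, 4, 5 and 7, and at 40.2, 50.1, 36.7 and 47.1 CPM in LDN 3, 4, 5 and 7. All blood libraries lay above all Naive libraries for Suclg1, in HDN by 0.45 ± 0.15 (adjusted p = 0.0213, lost without Naive 2, Naive 3 or HDN 4, at 0.0501 to 0.0581) and in LDN by 0.69 ± 0.15 (adjusted p = 0.00181). Sucla2 stood at 8.30, 10.2, 12.97 and 13.1 CPM in Naive, at 11.8, 9.38, 11.7 and 17.0 CPM in HDN and at 20.2, 13.01, 18.3 and 15.2 CPM in LDN. Its groups overlapped, and it was called higher in LDN against Naive alone (0.58 ± 0.21, adjusted p = 0.0337, lost without Naive 1, Naive 2, LDN 3, LDN 5 or LDN 7, at 0.0713 to 0.156, and with RLE scaling, at 0.0503 to 0.0590 over the scaling and filter alternatives). Suclg2 went the other way, with 1.91, 1.66, 2.34 and 2.32 CPM in Naive, 0.630, 1.24, 0.723 and 1.30 CPM in HDN and 1.29, 1.06, 0.970 and 1.02 CPM in LDN. Naive lay above both blood groups for Suclg2, which was 2.08-fold lower in HDN (-1.06 ± 0.26, adjusted p = 0.00346) and 1.88-fold lower in LDN (-0.91 ± 0.27, adjusted p = 0.0105). None of the 3 subunits passed between LDN and HDN in all libraries, where the differences were 0.24 ± 0.15 for Suclg1, 0.42 ± 0.21 for Sucla2 and 0.15 ± 0.27 for Suclg2, although Suclg1 passed without HDN 4 (adjusted p = 0.0163) and Sucla2 without HDN 7 (0.0285).

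Succinate dehydrogenase, complex II of the respiratory chain, held Sdha, the 1 gene of the 39 called lower in LDN than in HDN in the fit of all libraries. Sdha, the flavoprotein that oxidises succinate, stood at 65.8, 81.9, 86.8 and 83.3 CPM in Naive 1 to 4, at 158, 161, 156 and 135 CPM in HDN 3, 4, 5 and 7, and at 118, 118, 115 and 120.5 CPM in LDN 3, 4, 5 and 7. The 3 groups did not overlap, with HDN highest and LDN between HDN and Naive. Sdha was 1.92-fold higher in HDN than in Naive (0.94 ± 0.11, adjusted p = 5.09e-06), 1.48-fold higher in LDN than in Naive (0.57 ± 0.11, adjusted p = 0.000536) and 1.29-fold lower in LDN than in HDN (-0.37 ± 0.11, adjusted p = 0.0128). The last difference lay between -0.44 and -0.34 when each library was left out in turn.

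Sdhb, the iron-sulfur subunit that takes electrons from Sdha, ranked the groups differently. It stood at 67.1, 60.3, 59.3 and 55.5 CPM in Naive, at 75.1, 104, 88.6 and 62.1 CPM in HDN and at 100.3, 126, 122 and 108 CPM in LDN, in the same order of libraries. LDN overlapped HDN through HDN 4 only and lay above Naive throughout. Sdhb was higher in LDN than in HDN (0.46 ± 0.15, adjusted p = 0.0203) and than in Naive (0.91 ± 0.15, adjusted p = 0.000171), and higher in HDN than in Naive (0.45 ± 0.15, adjusted p = 0.019). The first call was lost without HDN 3, LDN 4 or LDN 5 (0.0574 to 0.0685) and in a fit of these groups alone (0.0525), and the last without Naive 2, Naive 4 or HDN 4 (0.0549 to 0.0583).

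The membrane anchors Sdhc and Sdhd, which bind ubiquinone, differed from each other. Sdhc stood at 37.2, 34.5, 35.1 and 35.7 CPM in Naive, at 33.2, 51.0, 34.4 and 30.4 CPM in HDN and at 45.4, 59.3, 47.2 and 54.2 CPM in LDN. HDN 4 stood apart from the other HDN libraries, and Sdhc was higher in LDN than in HDN (0.47 ± 0.16, adjusted p = 0.0256) and than in Naive (0.53 ± 0.16, adjusted p = 0.0108). The first of these was lost without HDN 3, 5 or 7, LDN 4 or LDN 7 (0.0625 to 0.0953) and in a fit of these groups alone (0.0727). Sdhd stood at 85.8, 75.2, 69.8 and 70.3 CPM in Naive, at 92.4, 131, 105 and 75.9 CPM in HDN and at 90.5, 118, 89.7 and 96.3 CPM in LDN. The LDN libraries lay within the wider HDN range for Sdhd (-0.03 ± 0.16, adjusted p = 0.877), and HDN was above Naive by 0.42 ± 0.16 (adjusted p = 0.0323, lost without Naive 2, 3 or 4, HDN 4 or HDN 5, at 0.0611 to 0.102). In LDN against Naive, Sdhd gave 0.39 ± 0.16 (adjusted p = 0.0509), which passed without Naive 1, HDN 4 or HDN 7 (0.0192 to 0.0487).

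Fh1, fumarase, which hydrates fumarate to malate, was the TCA gene with the largest fall in HDN. It stood at 5.70, 6.46, 10.4 and 10.1 CPM in Naive 1 to 4, at 1.70, 2.16, 2.32 and 2.75 CPM in HDN 3, 4, 5 and 7, and at 5.47, 5.49, 4.09 and 4.05 CPM in LDN 3, 4, 5 and 7. The groups did not overlap, with LDN between HDN and Naive. Fh1 was 3.63-fold lower in HDN than in Naive (-1.86 ± 0.24, adjusted p = 1.61e-05), 1.70-fold lower in LDN than in Naive (-0.77 ± 0.23, adjusted p = 0.0129) and 2.13-fold higher in LDN than in HDN (1.09 ± 0.24, adjusted p = 0.00246).

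The cytosolic malate dehydrogenase Mdh1 and the mitochondrial Mdh2 differed in behaviour. Mdh1 stood at 36.5 ± 5.79 CPM in Naive, at 14.2, 30.4, 13.8 and 21.8 CPM in HDN 3, 4, 5 and 7 and at 45.8 ± 8.68 CPM in LDN. Even HDN 4, the highest of its group, lay below all Naive and LDN libraries, and Mdh1 was lower in HDN than in Naive (-0.86 ± 0.24, adjusted p = 0.00677) and 2.28-fold higher in LDN than in HDN (1.19 ± 0.24, adjusted p = 0.00132). Mdh2, at 319 ± 39.5, 321 ± 65.9 and 373 ± 38.2 CPM, passed in no comparison, and its differences of 0.01 ± 0.15 (HDN against Naive), 0.23 ± 0.15 (LDN against Naive) and 0.22 ± 0.15 (LDN against HDN) were within the spread of its libraries.

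**Figure D3:**
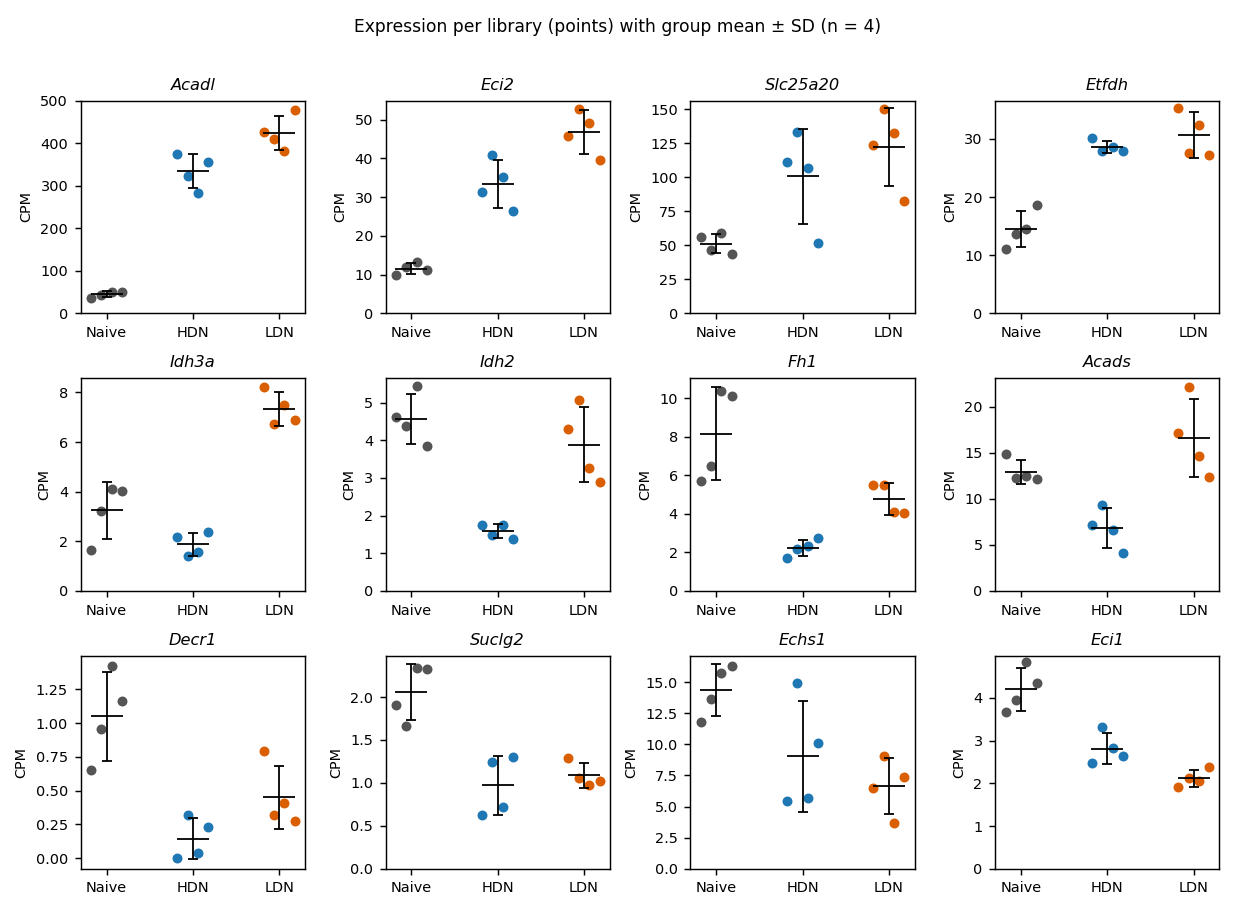
Expression in CPM of 12 of the genes in each library (points, linear axes from 0, scales differ) with group mean ± SD (n = 4). Acadl, Eci2 and Etfdh are high in both blood groups, Idh3a is highest in all LDN libraries, Idh2 is low in all HDN libraries, and Suclg2 and Eci1 are highest in Naive.

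Fatty acids reach the matrix as acylcarnitines. Slc25a20, the carnitine-acylcarnitine carrier of the inner membrane, stood at 55.7, 46.3, 58.7 and 43.9 CPM in Naive 1 to 4, at 111, 134, 106 and 51.5 CPM in HDN 3, 4, 5 and 7, and at 124, 150.2, 133 and 82.2 CPM in LDN 3, 4, 5 and 7. HDN 7 fell within the Naive range, and LDN 7 was the lowest LDN library. Slc25a20 was higher in HDN (0.98 ± 0.25, adjusted p = 0.00421) and in LDN (1.26 ± 0.25, adjusted p = 0.000867) than in Naive. LDN exceeded HDN in all 4 same-numbered pairs, by 0.28 ± 0.25 in the fit of all libraries (adjusted p = 0.377). In a fit of these groups alone the adjusted p was 0.508 without and 0.0495 with the replicate number as a block. Cpt2, which returns the acyl group to coenzyme A on the matrix side, stood at 20.2 ± 1.30, 26.1 ± 6.93 and 39.7 ± 4.53 CPM and was higher in LDN than in HDN (0.61 ± 0.18, adjusted p = 0.0135) and than in Naive (0.98 ± 0.18, adjusted p = 0.000452). Between HDN and Naive, Cpt2 gave 0.37 ± 0.18 (adjusted p = 0.0915), and 0.00301 without HDN 7, the lowest HDN library at 16.6 CPM. Cpt1a was not analysed here.

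The acyl-CoA dehydrogenases, which open each turn of the spiral and differ in the chain length they prefer, split by that order in HDN. Acadl, the long-chain enzyme, had the largest difference of all 39 genes, at 36.5, 43.6, 49.7 and 50.1 CPM in Naive 1 to 4, at 375, 323, 283 and 356 CPM in HDN 3, 4, 5 and 7, and at 426, 410.2, 382 and 479 CPM in LDN 3, 4, 5 and 7. All blood libraries exceeded all Naive libraries, and all LDN libraries exceeded all HDN libraries. Acadl was 7.43-fold higher in HDN than in Naive (2.89 ± 0.14, adjusted p = 1.95e-09) and 9.43-fold higher in LDN (3.24 ± 0.14, adjusted p = 1.37e-09). By absolute log2 fold change it ranked 1123 and 536 of the 10604 genes in these comparisons. The smaller step from HDN to LDN (0.34 ± 0.13, adjusted p = 0.0447) was lost without Naive 1, 2 or 3, HDN 4 or 5 or any 1 LDN library (0.0503 to 0.238) and under RLE scaling, DESeq2, no filter, library sizes without the 20 most abundant genes or a fit of these groups alone (0.0720 to 0.171). Acadl alone made up 9.44% to 12.3% of the summed level of the 17 fatty acid oxidation genes in Naive libraries, 35.5% to 50.8% in HDN and 37.9% to 48.5% in LDN. Without Acadl the sum was 355 ± 16.5 CPM in Naive, 459 ± 99.0 CPM in HDN and 584 ± 67.2 CPM in LDN.

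Acadvl, the very-long-chain enzyme, stood at 40.9 ± 3.05, 54.5 ± 11.3 and 61.8 ± 9.39 CPM in Naive, HDN and LDN. It was higher than in Naive in HDN (0.41 ± 0.15, adjusted p = 0.0287, lost without Naive 2, 3 or 4 or HDN 4, at 0.0713 to 0.0857) and in LDN (0.60 ± 0.15, adjusted p = 0.00434). Acadm, for medium chains, was lower in HDN than in Naive (-0.52 ± 0.15, adjusted p = 0.0074), at 26.3 ± 2.17, 18.4 ± 2.33 and 23.8 ± 3.63 CPM. LDN exceeded HDN for Acadm in all 4 same-numbered pairs, by 0.37 ± 0.15 (adjusted p = 0.0509). In a fit of these groups alone the adjusted p was 0.153 without and 0.0265 with the replicate number as a block. Acads, for short chains, stood at 14.8, 12.2, 12.5 and 12.1 CPM in Naive, at 7.12, 9.38, 6.66 and 4.16 CPM in HDN and at 17.1, 22.2, 14.6 and 12.3 CPM in LDN. HDN lay below both other groups without overlap, and Acads was 1.89-fold lower in HDN than in Naive (-0.92 ± 0.23, adjusted p = 0.00405) and 2.42-fold higher in LDN than in HDN (1.28 ± 0.24, adjusted p = 0.000692).

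In the later steps of the spiral the subunits and isozymes again differed. Echs1, the short-chain enoyl-CoA hydratase, stood at 11.8, 13.6, 15.8 and 16.3 CPM in Naive, at 5.43, 14.9, 5.67 and 10.1 CPM in HDN and at 6.47, 9.04, 3.68 and 7.35 CPM in LDN. HDN 4 reached the Naive range, and Echs1 was lower than in Naive in LDN (-1.11 ± 0.33, adjusted p = 0.0107), whereas HDN gave -0.66 ± 0.32 (adjusted p = 0.0895, and 0.00850 without HDN 4). Hadh, the short-chain hydroxyacyl-CoA dehydrogenase, had few reads, at 1.49, 1.81, 2.44 and 1.62 CPM in Naive, 0.242, 1.78, 0.609 and 0.801 CPM in HDN and 2.67, 2.81, 1.48 and 1.72 CPM in LDN. HDN 3 had 5 reads of it, and HDN 4 lay within the range of LDN. Hadh was 2.46-fold higher in LDN than in HDN (1.30 ± 0.43, adjusted p = 0.0248, lost without HDN 5, LDN 3 or LDN 4, at 0.0609 to 0.0709, and in a fit of these groups alone, at 0.0643). In HDN against Naive it gave -1.05 ± 0.43 (adjusted p = 0.0505), which passed without HDN 4 (0.00187) or LDN 5 (0.0486) and with RLE scaling, DESeq2, limma-voom or no filter (0.0227 to 0.0496).

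Hadha and Hadhb, whose shared upstream region is printed above, encode the alpha and beta subunits of the trifunctional protein that carries out the last 3 reactions on long chains. Hadha stood at 84.5 ± 5.05, 81.5 ± 8.47 and 121 ± 8.36 CPM in Naive, HDN and LDN and was higher in LDN than in HDN (0.57 ± 0.11, adjusted p = 0.000748) and than in Naive (0.51 ± 0.11, adjusted p = 0.00102). Hadhb stood at 5.67 ± 0.469, 8.73 ± 1.95 and 7.37 ± 0.990 CPM and was higher in HDN than in Naive (0.63 ± 0.18, adjusted p = 0.00818), and LDN against HDN gave -0.25 ± 0.18 (adjusted p = 0.275). In LDN against Naive Hadhb gave 0.38 ± 0.18 (adjusted p = 0.0909, and 0.0450 without HDN 4). Acaa2, the mitochondrial thiolase, stood at 25.3 ± 1.85, 48.8 ± 18.1 and 51.7 ± 10.2 CPM and was higher in HDN (0.95 ± 0.21, adjusted p = 0.00171) and in LDN (1.03 ± 0.21, adjusted p = 0.00113) than in Naive.

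Unsaturated fatty acids need auxiliary enzymes, and the pair of enoyl-CoA isomerases moved apart. Eci2 stood at 9.79, 11.9, 13.2 and 11.3 CPM in Naive 1 to 4, at 31.2, 41.0, 35.2 and 26.4 CPM in HDN 3, 4, 5 and 7, and at 45.8, 52.8, 49.0 and 39.6 CPM in LDN 3, 4, 5 and 7. Every blood library lay above every Naive library, by 2.90-fold in HDN (1.54 ± 0.16, adjusted p = 1.69e-06) and 4.06-fold in LDN (2.02 ± 0.16, adjusted p = 2.84e-07). LDN exceeded HDN by 0.48 ± 0.15 (adjusted p = 0.0195, lost without HDN 3, LDN 4 or LDN 5, at 0.0518 to 0.0706). Eci1 stood at 3.67, 3.95, 4.83 and 4.34 CPM in Naive, at 2.47, 3.31, 2.82 and 2.63 CPM in HDN and at 1.92, 2.12, 2.04 and 2.37 CPM in LDN. The 3 groups did not overlap, and Eci1 was lower than in Naive in HDN (-0.57 ± 0.18, adjusted p = 0.0118) and in LDN (-0.99 ± 0.18, adjusted p = 0.000401). Between LDN and HDN it gave -0.41 ± 0.18 (adjusted p = 0.0764), which passed without Naive 1 or LDN 7 (0.0394 to 0.0426) and under both other scalings of the libraries (0.0232 to 0.0458).

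Decr1, the dienoyl-CoA reductase, lay near the floor in blood. It stood at 0.650, 0.959, 1.42 and 1.16 CPM in Naive, at 0, 0.318, 0.0381 and 0.229 CPM in HDN and at 0.793, 0.323, 0.409 and 0.279 CPM in LDN. HDN lay below Naive throughout, and HDN 3 and HDN 5 were under the level of 3 reads. Decr1 was lower in HDN than in Naive (-2.68 ± 0.58, adjusted p = 0.00129), a size that rests on 17 reads in HDN. Decr1 passed the filter through the Naive libraries, where it is high, so this call is no support beyond that. It is counted among the 11 genes lower in HDN than in Naive. The other differences did not pass in all libraries: LDN against Naive gave -1.18 ± 0.52 (adjusted p = 0.0705, passing without HDN 3 or LDN 3, at 0.0307 to 0.0445, and in a fit of these groups alone, at 0.0188) and LDN against HDN 1.501 ± 0.63 (adjusted p = 0.0654, passing without HDN 4, at 0.0214, and with DESeq2, at 0.0466, and limma-voom, at 0.0304).

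Electrons from the acyl-CoA dehydrogenases pass through the electron transfer flavoprotein, made of Etfa and Etfb, to its ubiquinone oxidoreductase Etfdh. Etfdh stood at 11.1, 13.7, 14.5 and 18.7 CPM in Naive, at 30.2, 27.9, 28.6 and 27.9 CPM in HDN and at 35.4, 27.6, 32.4 and 27.2 CPM in LDN. All blood libraries lay above all Naive libraries, in HDN by 0.99 ± 0.16 (adjusted p = 0.000105) and in LDN by 1.08 ± 0.16 (adjusted p = 6.3e-05), and LDN against HDN gave 0.10 ± 0.15 (adjusted p = 0.635). Etfa stood at 11.1 ± 3.05, 10.4 ± 1.37 and 17.95 ± 3.35 CPM in Naive, HDN and LDN and was higher in LDN than in HDN (0.79 ± 0.21, adjusted p = 0.00692) and than in Naive (0.69 ± 0.21, adjusted p = 0.0113, and 0.0553 without LDN 3). Etfb, at 29.7 ± 2.30, 27.9 ± 12.4 and 33.3 ± 7.09 CPM, passed in no comparison. HDN ranged from 15.4 CPM in HDN 7 to 44.9 CPM in HDN 4 for Etfb, and without HDN 4 LDN was higher (adjusted p = 0.424 with and 0.0262 without it).

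Ratios of partner transcripts within a library depend little on how libraries are scaled where both genes have many reads. A fixed amount of CPM was added to both genes of each ratio. Scaling therefore does not cancel fully for genes of few reads, such as Suclg2 and Idh3a. For 12 pairs and 3 comparisons, 36 exact two-sided permutation tests of 4 against 4 libraries were made. These exact permutation tests can reach no lower than p = 0.0286, and the smallest Benjamini-Hochberg adjusted value was 0.0571, so none could be called at 0.05. The log2 ratio of Sdha to Sdhb was 0.91 ± 0.23 in HDN and 0.06 ± 0.16 in LDN (SD, n = 4; exact permutation p = 0.0286), with no overlap between them, and 0.39 ± 0.28 in Naive. Its fall from HDN to LDN of 0.85 on the log2 scale came with Sdha lower and Sdhb higher in LDN. The ratio of Sdhd to Sdhb was 0.29 ± 0.04 in HDN, 0.31 ± 0.05 in Naive and -0.21 ± 0.15 in LDN, the LDN libraries lying below all others (exact permutation p = 0.0286 against each group). The mean ratio of Sdhc to Sdhb was -1.14 ± 0.16 in each blood group, against -0.76 ± 0.09 in Naive.

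The ratio of Hadha to Hadhb was 3.84 ± 0.07 in Naive, 3.20 ± 0.29 in HDN and 3.99 ± 0.16 in LDN, so that HDN lay below both other groups without overlap (exact permutation p = 0.0286 each). Pdha1 to Pdhb was 1.23 ± 0.23 in Naive against 2.26 ± 0.24 in HDN and 2.23 ± 0.26 in LDN, about the same in both blood groups. Ogdh to Dlst was also higher in blood than in marrow, at -0.70 ± 0.11 in Naive, 0.17 ± 0.06 in HDN and 0.08 ± 0.02 in LDN. Its LDN libraries lay just below all HDN libraries (exact permutation p = 0.0286). Sucla2 to Suclg2, the ADP form against the GDP form, was 2.29 ± 0.21 in Naive, 3.39 ± 0.48 in HDN and 3.64 ± 0.25 in LDN, again without overlap between Naive and either blood group (exact permutation p = 0.0286 for all these comparisons of blood with marrow). Idh3a to Idh3b was -3.09 ± 0.47 in Naive, -3.73 ± 0.50 in HDN and -2.10 ± 0.19 in LDN, with LDN above both others. Dlat to Pdhx was highest in HDN, at 1.95 ± 0.21 against 1.39 ± 0.20 in Naive and 1.43 ± 0.24 in LDN. The ratios of Mdh1 to Mdh2, Etfa to Etfb and Idh3g to Idh3b overlapped in all comparisons, with a log2 difference of 1.00 between LDN and HDN for the first (exact permutation p = 0.0571).

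**Figure D4:**
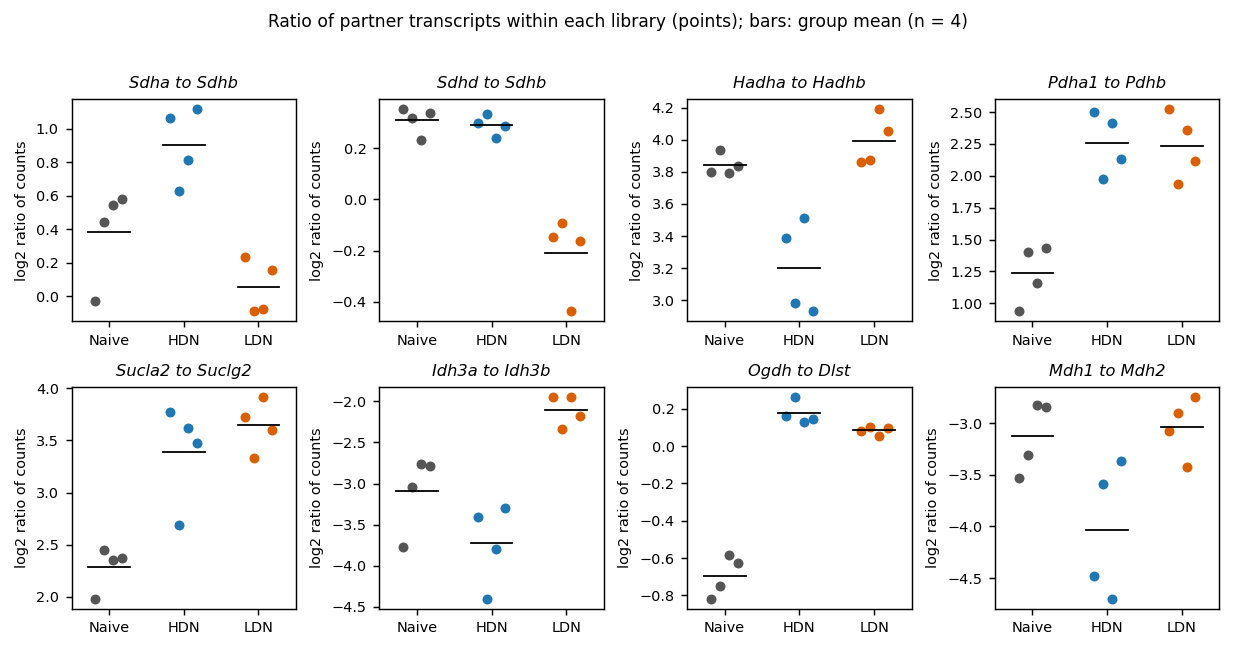
Log2 ratio of 8 pairs of partner transcripts in each library (points) with the group mean (bar, n = 4), on scales that differ between panels. Sdha to Sdhb is lower in all LDN than in all HDN libraries, Hadha to Hadhb is lowest in HDN, and Pdha1 to Pdhb, Sucla2 to Suclg2 and Ogdh to Dlst set both blood groups above Naive.

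Levels of different genes were compared per kilobase of exon (union of GENCODE M21 exons, build GRCm38). In Naive the highest of the 39 were Mdh2, at 89.7 CPM per kb, and Sdhd, at 61.1, and Acadl was the sixth at 22.4. In HDN Acadl was the highest at 167 CPM per kb, ahead of Mdh2 at 90.2 and Sdhd at 82.0. In LDN the order of these 3 was the same, with Acadl at 212, Mdh2 at 105 and Sdhd at 80.1. The lowest levels were those of Decr1 in all 3 groups, at 0.270, 0.0377 and 0.116 CPM per kb. In Naive and LDN, subunits of the NAD-dependent isocitrate dehydrogenase ranged from Idh3a at 0.641 and 1.45 CPM per kb to Idh3g at 15.1 and 19.4.

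Libraries that shared a number in the labels resembled each other across the blood groups. Deviations from the group mean over all 10604 genes correlated at 0.315 to 0.760 in the 4 same-numbered pairs and at -0.608 to 0.412 in the other pairs, the highest value being that of HDN 4 with LDN 4. Of the 39 genes, 25 (64.1%) had their highest level in number 4 of both HDN and LDN, where 27.6% of all tested genes did. They include Sdhb, Sdhc, Sdhd, Mdh1, Mdh2, Slc25a20, Cpt2, Acadvl, Acads, Hadha, Hadhb, Acaa2 and Eci2. Dld, Pdha1, Idh3a, Sucla2 and Acadm were instead lowest in number 4 of both. Number 7 held the lowest level in both groups for 9 of the 39 genes (23.1%, where 13.03% of all tested genes did), among them Slc25a20, Cpt2, Acads and Eci2. What a number stands for is not given in the sources used here.

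Other genes of these pathways were read from lists chosen beside the 39. Their counts stand beside the shares of all tested genes called higher and lower, which were 26.0% and 20.3% in LDN against HDN, 30.0% and 29.9% in HDN against Naive and 27.4% and 26.8% in LDN against Naive. Of 7 tested genes of pyruvate entry, 2 were higher and 2 lower in LDN than in HDN, 2 and 2 in HDN against Naive, and 3 and 2 in LDN against Naive. Pdk1, a kinase that shuts pyruvate dehydrogenase, stood at 0.692 ± 0.244 CPM in Naive, 8.996 ± 1.57 CPM in HDN and 2.18 ± 0.182 CPM in LDN, higher in HDN than in Naive by 3.68 ± 0.25 (adjusted p = 3.55e-08) and lower in LDN than in HDN by a log2 difference of -2.05 ± 0.23 (adjusted p = 1.38e-05). Its paralogue Pdk2 was lower in LDN than in both other groups, at 2.88 ± 0.813, 2.51 ± 0.743 and 1.29 ± 0.328 CPM in Naive, HDN and LDN (LDN against HDN -0.96 ± 0.28, adjusted p = 0.0141). Of the subunits of the mitochondrial pyruvate carrier, Mpc2 fell from 78.7 ± 8.04 CPM in Naive to 30.9 ± 5.83 CPM in HDN (-1.35 ± 0.14, adjusted p = 2.25e-06) with LDN between at 49.0 ± 3.33 CPM, and Mpc1, at 2.98 ± 0.127, 3.71 ± 0.724 and 3.66 ± 0.547 CPM, passed in no comparison. Pdpr, a regulatory subunit of the phosphatase that reopens the complex, stood at 7.46 ± 2.44, 19.6 ± 3.34 and 18.3 ± 1.38 CPM and was higher in both blood groups than in Naive (1.40 ± 0.23 and 1.30 ± 0.23, adjusted p = 0.000125 and 0.000296).

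Of 11 tested TCA-linked genes, 6 were higher in LDN than in HDN (26.0% of all tested genes were). Me2, a mitochondrial malic enzyme, stood at 110.0 ± 12.05, 72.0 ± 12.03 and 207 ± 15.8 CPM in Naive, HDN and LDN (LDN against HDN 1.52 ± 0.14, adjusted p = 2.57e-06), and Idh1, the cytosolic isocitrate dehydrogenase, at 74.9 ± 6.71, 48.5 ± 10.9 and 117 ± 12.6 CPM (1.27 ± 0.15, adjusted p = 2.51e-05). Acly, which splits exported citrate for lipid synthesis, was higher in LDN, at 452 ± 27.1 CPM against 267 ± 30.9 CPM in HDN (0.76 ± 0.11, adjusted p = 7.97e-05) and 259 ± 12.9 CPM in Naive. Slc25a10, the dicarboxylate carrier, went from 8.35 ± 0.946 CPM in Naive to 0.666 ± 0.430 CPM in HDN (-3.59 ± 0.39, adjusted p = 2.91e-06) and 1.36 ± 0.510 CPM in LDN. Slc25a1, the citrate carrier, was higher in HDN (0.72 ± 0.21, adjusted p = 0.00785) and in LDN (1.21 ± 0.21, adjusted p = 0.00024) than in Naive, at 10.4 ± 1.47, 17.1 ± 4.66 and 24.0 ± 5.16 CPM. In HDN against Naive 3 of the 11 were higher and 4 lower, and in LDN against Naive 6 were higher and 1 lower. Over all genes the shares were 30.0% and 29.9%, and 27.4% and 26.8%.

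Of 12 tested genes of fatty acid uptake and activation, 4 were higher and 2 lower in LDN than in HDN and 4 and 2 in HDN than in Naive, and 4 and 1 in LDN than in Naive. The shares over all genes were 26.0% and 20.3%, 30.0% and 29.9%, and 27.4% and 26.8%. Slc27a4, a fatty acid transport protein, stood at 526 ± 80.7, 149.8 ± 44.6 and 376 ± 81.2 CPM in Naive, HDN and LDN (HDN against Naive -1.81 ± 0.23, adjusted p = 1.08e-05). Fabp5, a fatty acid carrier of the cytosol, had the reverse order, at 5.38 ± 1.05, 37.0 ± 7.20 and 23.7 ± 1.19 CPM (2.77 ± 0.18, adjusted p = 2.55e-08). Acsl1, which activates long chains, was lower in both blood groups, at 309.8 ± 27.4 CPM in Naive, 141 ± 40.1 CPM in HDN and 134 ± 46.9 CPM in LDN (-1.14 ± 0.24 and -1.21 ± 0.24, adjusted p = 0.00109 and 0.000827). Acaca, whose product malonyl-CoA is an inhibitor of carnitine entry and a substrate of fatty acid synthesis, was higher in LDN, at 15.4 ± 4.40 CPM against 5.38 ± 1.21 CPM in HDN (1.52 ± 0.27, adjusted p = 0.000582). Crot, which makes carnitine esters of medium chains in peroxisomes and stood in this list and in the peroxisomal list, was at 13.3 ± 3.68, 15.9 ± 5.36 and 33.6 ± 15.5 CPM (1.08 ± 0.35, adjusted p = 0.0219).

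Of 16 tested mitochondrial acyl-CoA enzymes outside the 39, many of which break down branched-chain amino acids, 10 were higher and 2 lower in LDN than in HDN, 4 and 8 in HDN than in Naive, and 7 and 4 in LDN than in Naive. The shares over all genes were 26.0% and 20.3%, 30.0% and 29.9%, and 27.4% and 26.8%. Ivd, isovaleryl-CoA dehydrogenase, stood at 8.67 ± 1.37, 7.81 ± 4.11 and 30.1 ± 6.64 CPM in Naive, HDN and LDN (LDN against HDN 1.95 ± 0.34, adjusted p = 0.00047). Acad8, isobutyryl-CoA dehydrogenase, was highest in Naive, at 26.5 ± 0.821 CPM against 5.94 ± 0.629 CPM in HDN (-2.15 ± 0.14, adjusted p = 1.67e-08) and 10.8 ± 1.21 CPM in LDN. Acad11, a dehydrogenase of very long chains, stood at 36.2 ± 7.37, 9.51 ± 1.35 and 28.9 ± 5.42 CPM and Mcee, methylmalonyl-CoA epimerase, at 25.2 ± 2.97, 8.58 ± 1.42 and 16.9 ± 1.86 CPM, both lower in HDN than in each other group. Of 17 tested peroxisomal genes, 9 were higher in LDN than in HDN, 7 were higher and 2 lower in HDN than in Naive, and 12 and 2 in LDN than in Naive. Over all genes these shares were 26.0%, 30.0% and 29.9%, and 27.4% and 26.8%. Acox2, an oxidase of branched chains and bile acid precursors, stood at 0.0694 ± 0.0551, 1.13 ± 0.609 and 10.4 ± 2.69 CPM, with the Naive mean under the level of 3 reads. Abcd3, a peroxisomal fatty acid transporter, was lower in HDN, at 1.89 ± 0.1996 CPM against 8.90 ± 2.69 CPM in Naive (-2.23 ± 0.24, adjusted p = 2.32e-06) and 5.62 ± 0.896 CPM in LDN, and Acaa1a, the peroxisomal thiolase, stood at 27.3 ± 4.58, 51.8 ± 11.7 and 69.3 ± 3.19 CPM.

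Of 8 tested transcription factors and coactivators of oxidative metabolism, 1 was higher in LDN than in HDN, 3 were higher and 1 lower in HDN than in Naive, and 5 and 2 in LDN than in Naive. Over all genes these shares were 26.0%, 30.0% and 29.9%, and 27.4% and 26.8%. Ppard, a nuclear receptor for fatty acids, stood at 28.5 ± 4.05, 75.7 ± 16.4 and 78.5 ± 9.01 CPM and was higher than in Naive in HDN (1.41 ± 0.17, adjusted p = 8e-06) and in LDN (1.46 ± 0.17, adjusted p = 8.78e-06). Its partner Rxra was lower in HDN, at 17.99 ± 4.24 CPM against 37.2 ± 1.85 CPM (-1.05 ± 0.17, adjusted p = 0.000139). Gabpa, the ETS subunit of GABP, stood at 16.8 ± 2.68, 32.1 ± 12.2 and 27.7 ± 8.20 CPM (HDN against Naive 0.93 ± 0.28, adjusted p = 0.0106), and Tfam, which packages and transcribes mitochondrial DNA, at 3.86 ± 0.670, 4.36 ± 1.08 and 6.21 ± 1.10 CPM (LDN against Naive 0.69 ± 0.22, adjusted p = 0.0161). Ppara and Ppargc1a, better known from liver and muscle, had 0 reads in all 12 libraries, where 3 reads would be worth at most 0.153 CPM. Esrra was not analysed here.

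Markers of immature and dividing cells differed between the groups, and lists of other cell types were read beside them. Over all tested genes, 26.0% were higher and 20.3% lower in LDN than in HDN. In HDN against Naive these shares were 30.0% and 29.9%. All 6 tested markers of early neutrophil precursors, among them Mpo and Elane, were higher in LDN than in HDN, and their summed level was 386 to 462 CPM in Naive, 19.2 to 31.4 CPM in HDN and 114 to 209 CPM in LDN. All 8 genes of cell division, such as Mki67 and Top2a, were likewise higher in LDN than in HDN, with sums of 337 to 513 CPM in Naive, 5.29 to 7.37 CPM in HDN and 54.5 to 102 CPM in LDN. The list of mature and granule markers of neutrophils (7 of 11 higher and 1 lower in LDN than in HDN) summed to 204630 to 238270 CPM in Naive, 79640 to 130840 CPM in HDN and 196380 to 258260 CPM in LDN. Within it the granule genes Camp and Ltf were higher in LDN than in HDN (4.32 ± 0.42 and 4.22 ± 0.44). The receptor gene Csf3r was lower (-1.13 ± 0.19, adjusted p = 0.000392), and Cxcr2 gave -0.31 ± 0.20 (adjusted p = 0.215). These 4 genes were singled out after their values were seen. Markers of monocytes and macrophages (6 of 11 higher and 2 lower in LDN than in HDN) summed to 657 to 883 CPM in Naive, 453 to 708 CPM in HDN and 504 to 666 CPM in LDN. These monocyte sums overlapped between all groups. The B cell list (1 of 4 higher) summed to 16.6 to 42.7, 0.458 to 2.70 and 1.77 to 7.15 CPM. The platelet list (6 of 7 higher, 1 lower) summed to 115 to 126, 9.81 to 11.9 and 28.8 to 34.1 CPM. The T and natural killer cell list (2 of 6 higher) summed to 197 to 270, 3.63 to 20.02 and 34.6 to 50.6 CPM in Naive, HDN and LDN. Eosinophil and basophil markers (1 of 5 higher, 2 lower) summed to 15.5 to 65.5, 40.5 to 86.3 and 14.2 to 23.6 CPM. In HDN against Naive all 6 precursor and all 8 division genes were lower, as were all 4 B cell genes and 6 of the 7 platelet genes (29.9% of all tested genes were). The platelet genes Pf4 and Gp9 had 2 reads each in HDN. Markers with so few reads passed the filter on low counts through groups where they are high, so their calls against HDN are no support beyond that. The part of any of these cell types in the differences of the 39 genes was not tested. The 4 haemoglobin genes and the hepatocyte genes Alb and Ttr had 0 reads. The erythroid list of 8 genes, 4 of them with reads and 0 tested, summed to 0.382 to 4.02 CPM in Naive. It summed to 0.190 to 0.458 CPM in HDN and 0.102 to 0.279 CPM in LDN. Of 7 hepatocyte and epithelial genes, only Cdh1 and Epcam passed the filter on low counts, and both were detected in blood. The epithelial keratin genes Krt8 and Krt18 did not pass it. Cdh1 stood at 0.136 ± 0.0807 CPM in Naive, 33.9 ± 30.9 CPM in HDN and 36.2 ± 29.9 CPM in LDN. In both blood groups Cdh1 lay between 50.6 and 71.3 CPM in numbers 3 and 5 and between 3.85 and 12.8 CPM in numbers 4 and 7. Epcam had the reverse order of numbers, at 0.799 to 1.74 CPM in HDN 3 and 5 and 6.199 to 7.71 CPM in HDN 4 and 7. It was lower in LDN, at 0.496 ± 0.543 CPM (-3.04 ± 0.82, adjusted p = 0.0084). The part of epithelial cells in the differences and spread of the 39 genes was not tested.

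In the authors' deposited table of DESeq2 results, with their adjusted p under 0.05, 17 of the 39 genes were higher and 1 lower in LDN against HDN, 14 higher and 12 lower in HDN against Naive, and 21 higher and 5 lower in LDN against Naive. Shares over all genes were not computed for the deposited results. DESeq2 run here on 15762 genes called 2801 higher and 2644 lower in LDN against HDN. It called 3471 and 3630 in HDN against Naive, and 2891 and 3337 in LDN against Naive. The authors' calls were the same as those of the edgeR fit for 36, 38 and 39 of the 39 genes, and no gene was called in opposite directions.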

How the data were processed

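PolyA RNA was prepared per the labels' protocols with TriZol and RNeasy and a stranded KAPA kit. The submitters' processing notes name CASAVA 1.8.2, Trimmomatic, STAR and DESeq2 1.16.1. Neither the genome build nor the use of strand in counting is given in the sources used here. The deposited count table holds raw counts per gene symbol in 12 libraries. The authors' deposited tables hold, per the file headers, DESeq2's log2 fold changes with their errors, p-values, test scores and a mean signal of normalized counts, and served only as a set of calls beside those made here.

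Counts were fitted in R 4.3.3 with edgeR 4.0.16 (TMM scaling, filterByExpr, robust quasi-likelihood test, 3 group means over all 12 libraries), and p-values were adjusted by Benjamini-Hochberg over 10604 genes. The fit was tested on simulated data. Partner ratios were log2 ratios of CPM, with exact permutation of 4 against 4 libraries (70 arrangements). A fixed prior, nominally 2 counts, was added to both CPM values. It was computed at 1/3 of the mean scaled library size, and so was worth more than 2 counts at the mean size. Alternatives were RLE size factors, library sizes without the 20 most abundant genes, no filter, DESeq2 1.42.0, limma-voom (limma 3.58.1), a fit of the compared groups alone, a replicate block and leaving out each library. HDN and LDN share numbers 3, 4, 5 and 7 in the labels. Same-numbered libraries deviated together (r = 0.385, 0.760, 0.495 and 0.315, all above 0.1). HDN 3 with LDN 5 (0.412), HDN 4 with LDN 7 (0.255) and HDN 5 with LDN 3 (0.185) also exceeded 0.1. This cut therefore did not single out same-numbered pairs. The block followed the shared numbers, and the correlations behind that choice come from the same counts. No 2 libraries of a group agreed within sampling noise (chi-square per gene of at least 3.42).

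The genes and lists were chosen with earlier results of these data known. Values in every library are given for the 4 called genes of largest change in each direction and comparison, for genes called against most of their step, and for subunits of succinate dehydrogenase and succinate-CoA ligase. In the other lists up to 4 called genes of largest change were named, with Pdk1, Mpc1, Mpc2, Acsl1, Acly and Esrra. A result that this rule would name is not reported here. Esrra, Cpt1a, Pcx, Acsl5, Got1, Sdhaf2 and Ly6g were not analysed here.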

Additional observations from a re-analysis of the deposited data

Results flagged for a closer look

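In 7 of 117 groups of 4 libraries (39 genes in 3 groups), 1 library stood apart, the gap to its neighbour taking more of the range than Dixon's 95% limit for 4 values. Chance alone marks about 1 group in 20. Of the 7, 4 were in Naive 1, with Dld at 9.25 CPM (the others 16.0 to 16.5), Idh3g at 43.8 CPM (39.6 to 40.3), Mdh2 at 378 CPM (293 to 306) and Acads at 14.8 CPM (12.1 to 12.5). HDN 4 stood apart for Dld, at 9.35 CPM (22.4 to 24.6), and for Idh3b, at 34.7 CPM (25.0 to 25.6). LDN 4 stood apart for Etfb, at 43.9 CPM (28.7 to 31.0).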

How the results depend on the processing

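In LDN against HDN, 18 genes were higher and 1 lower. Other settings gave 15 and 2 with RLE scaling, 14 and 2 with library sizes without the 20 most abundant genes, and 11 higher in a fit of these groups alone, and leaving out 1 library gave 11 to 22 higher and 1 to 2 lower. The replicate block was run in the fit of these groups alone, where it raised the number higher from 11 to 21. Against the fit of all libraries it added Dld, Slc25a20 and Acadm and lost none. Decr1 did not pass the filter in the fits of HDN and LDN alone. In HDN against Naive leaving out 1 library gave 8 to 15 higher and 10 to 12 lower, and in LDN against Naive 17 to 24 and 4 to 5. The calls of 11 of 19, 17 of 25 and 21 of 26 genes held in every setting run for LDN against HDN, HDN against Naive and LDN against Naive. Changes of sign were seen only among values that were not called. With library sizes without the 20 most abundant genes, Acaa2 was -0.011 and Etfdh -0.015 in LDN against HDN. With the same sizes, Idh3b was 0.042 and Hadha 0.013 in HDN against Naive. Mdh2 in HDN against Naive gave -0.0096 with limma-voom and -0.0063 in a fit of these groups alone. The ratio of Sdhc to Sdhb in LDN against HDN gave -0.00057 with a nominal prior of 5 counts in place of 2. Leaving out 1 library gave, in LDN against HDN, ranges of -0.18 to 0.12 for Sdhd, -0.11 to 0.37 for Acaa2, -0.0033 to 0.31 for Suclg2, -0.038 to 0.12 for Etfdh and -0.028 to 0.26 for Idh3g. In HDN against Naive the ranges were -0.060 to 0.15 for Mdh2, -0.21 to 0.042 for Etfa, -0.14 to 0.028 for Idh3b, -0.12 to 0.16 for Sdhc, -0.014 to 0.29 for Sucla2, -0.11 to 0.015 for Hadha and -0.42 to 0.11 for Etfb, and in LDN against Naive -0.045 to 0.20 for Etfb. Library sizes without the 20 most abundant genes moved the median of all genes in LDN against HDN from 0.02 to -0.09. The cause of these changes was not tested. Decr1, with 151 reads in all, is limited by depth.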
